A study of Mus musculus with 14 samples.

Results

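The AP-1 and BATF factors were read as 9 genes, Fos, Fosb, Fosl1, Fosl2, Jun, Junb, Jund, Batf and Batf3, chosen by gene name. The annotation gave 13 of the 45101 deposited probe sets to 1 of these genes alone, and all 13 passed the filter on low signal. They were followed over 14 mouse Affymetrix arrays of total RNA from T cells that had been polarised to Th1 or Th2 cells for 2 weeks. Th1 cells are the helper T cells known for interferon gamma, and Th2 cells those known for interleukin 4. In each cell type 1 array was run for each of 7 treatments. These were an siRNA against Trpm4, an siRNA against Thy1 as its control, no treatment, and retroviral infection with dominant negative (DN) Trpm4 or with the vector only, each with 4 or 12 hours of stimulation. Trpm4 is a channel that calcium opens to monovalent cations, and the series asked how gene profiles changed when it was inhibited by siRNA or by the DN retrovirus. The labels give the polarised cells no strain, age, sex or number of animals, and they do not describe the stimulus. They tie a stimulation time to the retrovirus arrays alone, so that time and retrovirus cannot be told apart in any comparison of the 4 h or 12 h arrays with the others.

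AP-1 is a dimer of basic leucine zipper proteins that binds DNA through paired helices. JUN proteins can pair with themselves or with FOS proteins, while FOS proteins need a JUN partner. In T cells the complex forms after antigen receptor signalling, is switched on through MAP kinases, and binds cytokine genes such as Il2 together with NFAT. BATF and BATF3 lack the activation domain of FOS, pair with JUN proteins, and bind composite sites together with the interferon regulatory factors IRF4 and IRF8. In the mouse, JUNB is known as an activator of Il4 in Th2 cells and BATF is needed for several helper T cell programmes, while BATF3 is best known for its role in the development of cross-presenting dendritic cells.

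The promoters of 5 members are shown here because several of these genes are known to be controlled by their own proteins or by CREB, and so that their sites can be set beside the signals. RefSeq windows of build GRCm38.p6, from 250 bases before to 50 bases after the start of a gene, matched 8 of the 9 genes by symbol (all but Fosl1). The windows below, in the direction of the gene, lie at chr12:85473640-85473939 on the plus strand for Fos, chr7:19309996-19310295 on the minus strand for Fosb, chr4:95052173-95052472 on the minus strand for Jun, chr12:85686470-85686769 on the plus strand for Batf and chr1:191098164-191098463 on the plus strand for Batf3. Capitals mark matches to the motifs searched for.
Fos: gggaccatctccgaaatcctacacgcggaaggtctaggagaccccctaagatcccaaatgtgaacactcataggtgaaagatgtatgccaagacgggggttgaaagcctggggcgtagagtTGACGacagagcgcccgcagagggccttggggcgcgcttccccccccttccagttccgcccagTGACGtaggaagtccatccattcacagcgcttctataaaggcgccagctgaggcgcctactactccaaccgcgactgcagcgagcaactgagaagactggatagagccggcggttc
Fosb: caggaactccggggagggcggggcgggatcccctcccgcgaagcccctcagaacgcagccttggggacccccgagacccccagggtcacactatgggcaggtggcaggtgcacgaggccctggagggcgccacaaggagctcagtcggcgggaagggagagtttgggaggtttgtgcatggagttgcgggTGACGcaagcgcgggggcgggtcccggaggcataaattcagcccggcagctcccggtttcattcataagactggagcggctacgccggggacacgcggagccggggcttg
Jun: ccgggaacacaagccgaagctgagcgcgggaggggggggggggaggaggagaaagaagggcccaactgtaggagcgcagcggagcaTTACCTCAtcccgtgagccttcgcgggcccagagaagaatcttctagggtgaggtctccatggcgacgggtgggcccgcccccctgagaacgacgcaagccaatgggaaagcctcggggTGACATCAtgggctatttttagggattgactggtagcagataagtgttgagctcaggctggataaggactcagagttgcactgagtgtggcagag
Batf: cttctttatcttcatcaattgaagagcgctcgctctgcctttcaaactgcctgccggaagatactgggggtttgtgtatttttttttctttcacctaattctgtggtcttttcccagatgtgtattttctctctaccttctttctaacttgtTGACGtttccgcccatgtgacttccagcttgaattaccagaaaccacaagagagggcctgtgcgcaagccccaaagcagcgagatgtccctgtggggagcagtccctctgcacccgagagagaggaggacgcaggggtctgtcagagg
Batf3: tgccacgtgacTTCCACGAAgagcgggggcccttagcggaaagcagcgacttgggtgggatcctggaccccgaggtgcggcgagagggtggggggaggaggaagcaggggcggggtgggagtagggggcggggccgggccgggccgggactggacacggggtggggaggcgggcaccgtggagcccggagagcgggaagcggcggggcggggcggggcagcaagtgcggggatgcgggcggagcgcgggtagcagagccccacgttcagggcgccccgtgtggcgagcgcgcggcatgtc

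Both strands of each window were searched, and overlapping matches were allowed. TGACG, the core of the cAMP response element, was found in the Fos window at −129 to −125 and at −66 to −62 relative to the start. It also stood at −60 to −56 of Fosb, at −98 to −94 of Batf, and at −106 to −102 of Junb, whose window is not printed. The same letters were in 20.8% of the 32851 mouse windows. The Jun window held TGACATCA at −45 to −38 and TTACCTCA at −164 to −157, the pair of AP-1-like sites through which Jun is known to regulate itself. These were in 3.62% and 0.889% of all windows. The STAT consensus TTCNNNGAA was in the Batf3 window at −239 to −231 and in 8.3% of all windows, and the AP-1 consensus TGANTCA was in 0 of the 8 windows and in 7.81% of all. A match is a description of letters, and these arrays give no reading of binding there.

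The 14 arrays differed in the quality of their RNA or its labelling. On 6 arrays, those of both cell types at 4 h and of Th2 cells at 12 h, the Gapdh control probe sets had a log2 ratio of 3′ over 5′ signal of 5.43 to 5.91, against −0.25 to 0.04 on the other 8 arrays. The Actb controls gave 3.96 to 4.85 on the same 6 arrays, against 0.05 to 0.47 on the other 8. These are called 3′-biased arrays here. Arrays of the same cell type and labelled time correlated at 0.987 or more over all probe sets for the retrovirus pairs, while the lowest correlation among the arrays with no labelled time was 0.827 in Th1 cells and 0.882 in Th2 cells. Over the 7 Th1 over Th2 pairs, Ifng and Il12rb2 were higher in Th1 cells (log2 3.54 and 2.51) and Gata3 was lower (−2.92), as were Il4, Il5 and Il13, whereas Tbx21 (0.39), Cxcr3 (0.19) and Il18rap (0.52) did not pass the test. The targeted genes gave 58.4 for Trpm4 with Trpm4 siRNA against 100.3 with Thy1 siRNA in Th1 cells, and 84.5 against 133 in Th2 cells. With the DN retrovirus Trpm4 gave 119 against 70.5 with vector at 4 h and 516 against 75.3 at 12 h in Th1 cells, and 128 against 117 and 129 against 135 in Th2 cells.

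Signals are quoted as deposited, on a linear scale, and every log2 difference was taken after quantile normalisation as log2(signal + 16), a scale whose floor is 4.0 and whose median probe set lies at 5.39. This scale understates changes of dim probe sets. Where a gene had several probe sets, the one of highest mean is quoted first. Differences are given with their standard error (SE) and with limma's Benjamini-Hochberg adjusted p over the 29467 probe sets tested. With 1 array per condition, matched pairs of arrays, or arrays of 1 cell type and 1 labelled time that differ in treatment, stood in for replicates, so the p-values measure the spread between these arrays alone. In bulk RNA a smaller share of cells that express a gene and less RNA per cell cannot be told apart.

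**Figure D1:**
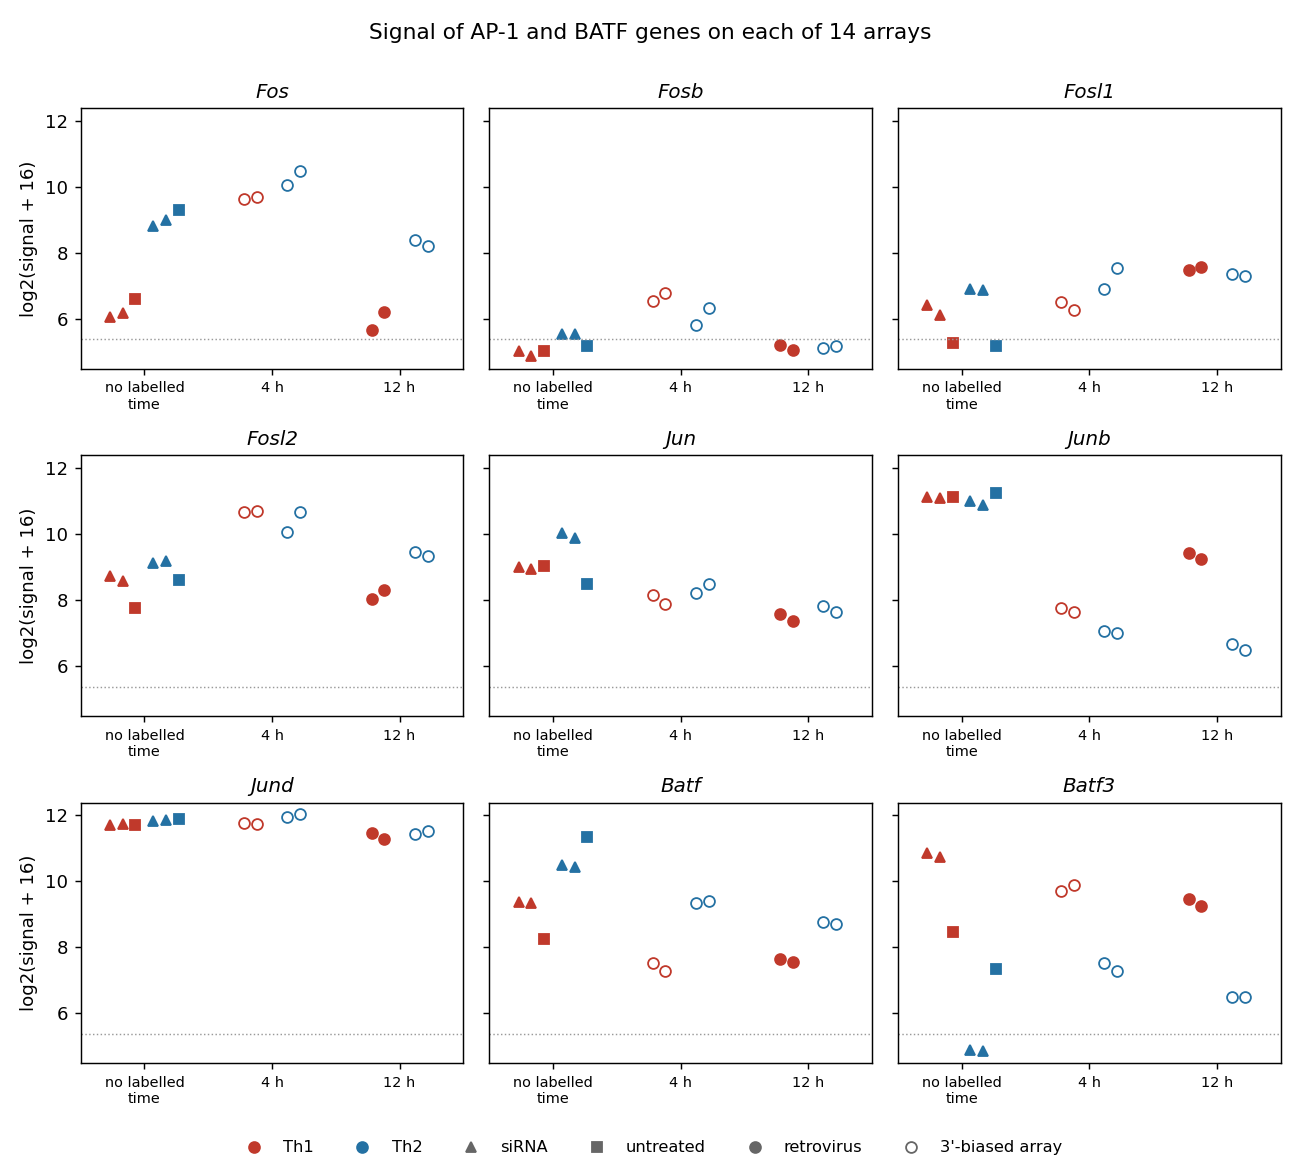
Signal of the 9 genes on each of the 14 arrays, as log2(signal + 16) after quantile normalisation, by labelled time, with Th1 in red and Th2 in blue, open symbols for 3′-biased arrays and a dotted line at the median probe set (5.39). The Fos points of Th1 cells lie at 9.64 and 9.69 at 4 h and between 5.67 and 6.60 on the other 5 Th1 arrays, and the Batf3 points of Th1 cells lie above those of Th2 cells at each time.

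Th1 and Th2 cells differed in 3 of the 9 genes. Fos and Batf were lower in Th1 cells in all 7 pairs, Batf3 was higher in Th1 cells in all 7, and the other 6 genes did not pass the test. These were 3 of 13 member probe sets, beside 9.79% of all probe sets tested. The 1 higher and 2 lower ones stood beside 3.65% higher and 6.14% lower of all. The median log2 difference of the 9 genes was −0.35, against 0.01 over all probe sets.

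Fos is the founding FOS protein and an immediate early gene that T cells switch on within minutes of stimulation. In Th1 cells its signal was 50.1 with Trpm4 siRNA, 53.2 with Thy1 siRNA and 59.6 without treatment, then 784 with DN Trpm4 and 798 with vector at 4 h, and 33.9 with DN Trpm4 and 53.6 with vector at 12 h. In Th2 cells it was 527 with Trpm4 siRNA, 574 with Thy1 siRNA and 547 without treatment, then 875 with DN Trpm4 and 1391 with vector at 4 h, and 329.7 with DN Trpm4 and 265 with vector at 12 h. Th1 cells were thus low at all times but 4 h, when their signal exceeded every Th2 array of the other times, and each Th1 array lay below the Th2 array of its own pair. The log2 difference over the 7 pairs was −2.03 ± 0.31 (adjusted p = 0.00439), from −2.78 to −0.42 in single pairs. Within the arrays of no labelled time it was −2.75 ± 0.21 (adjusted p = 3.11e-05). At 4 h it was −0.61 ± 0.26 and did not pass (adjusted p = 0.285), and at 12 h it was −2.36 ± 0.26 (adjusted p = 9.68e-05), where the Th1 arrays were not 3′-biased and the Th2 arrays were.

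Batf encodes the founding BATF protein, which pairs with JUNB and IRF4 on cytokine genes. In Th1 cells its signal was 755 with Trpm4 siRNA, 688 with Thy1 siRNA and 223 without treatment, then 184 with DN Trpm4 and 149 with vector at 4 h, and 161 with DN Trpm4 and 152 with vector at 12 h. Th2 cells gave 1843 with Trpm4 siRNA, 1747 with Thy1 siRNA and 2284 without treatment, then 578 with DN Trpm4 and 660.2 with vector at 4 h, and 415 with DN Trpm4 and 369 with vector at 12 h. The groups did not overlap at any labelled time, and the untreated pair stood farthest apart. The log2 difference over the 7 pairs was −1.64 ± 0.25 (adjusted p = 0.0036), from −3.09 to −1.10. It passed at each time as well, with −1.77 ± 0.31 at no labelled time (adjusted p = 0.0082), −1.97 ± 0.38 at 4 h (adjusted p = 0.0151) and −1.13 ± 0.38 at 12 h (adjusted p = 0.0481). The 4 h value compares arrays of the same kind, and its call was lost without any 1 of the 4 arrays of that time (−2.09 to −1.84). The 12 h call was lost in 15 of 21 alternatives.

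Batf3 encodes the shorter relative of BATF. In Th1 cells its signal was 2359 with Trpm4 siRNA, 2097 with Thy1 siRNA and 260.0 without treatment, then 824 with DN Trpm4 and 903 with vector at 4 h, and 623 with DN Trpm4 and 536 with vector at 12 h. The Th2 signals were 15.2 with Trpm4 siRNA, 15.2 with Thy1 siRNA and 134 without treatment, then 190.1 with DN Trpm4 and 159.8 with vector at 4 h, and 82.5 with DN Trpm4 and 74.7 with vector at 12 h. Every Th1 array lay above every Th2 array. Batf3 had the highest log2 difference of the 9 genes, 3.35 ± 0.56 over 7 pairs (adjusted p = 0.00628), from 1.11 in the untreated pair to 5.96 in the Trpm4 siRNA pair. It was 4.32 ± 0.70 at no labelled time (adjusted p = 0.0051), 2.39 ± 0.86 at 4 h, which did not pass (adjusted p = 0.18), and 2.86 ± 0.86 at 12 h (adjusted p = 0.0297). The 12 h call was lost without any 1 of the 4 arrays of that time (2.76 to 2.97). Dendritic cells also use Batf3, so the 9 macrophage and dendritic cell markers measured were summed. They gave 276 to 344 on the Th1 arrays, against 342 to 620 on the Th2 arrays. Of these Itgax, which encodes CD11c, was lower in Th1 cells at 4 h (−1.56 ± 0.33, adjusted p = 0.0229) and at 12 h (−1.18 ± 0.33, adjusted p = 0.0208) and did not pass over the 7 pairs (−0.74 ± 0.29, adjusted p = 0.136). The summed signal of the 2 natural killer cell markers measured was 606 to 5105 on the Th1 arrays, against 26.8 to 49.8 on the Th2 arrays. Most of the Th1 sum was Klrd1, with 593 to 5005 on the Th1 arrays, against 14.66 to 34.35 on the Th2 arrays. Ncr1 did not pass the filter on low signal and gave 7.62 to 100.26 on the Th1 arrays, against 2.78 to 22.43 on the Th2 arrays. The part of other cell types in these differences was not tested.

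The other members did not pass the test between cell types over the 7 pairs. Junb gave 1.0 ± 0.38 over the 7 pairs (adjusted p = 0.12), and its pairs ran from −0.12 to 2.76. The 2 highest were the 12 h pairs, in which the Th1 arrays were not 3′-biased and the Th2 arrays were. The second Jun probe set, 1448694_at, gave −0.96 ± 0.32 (adjusted p = 0.0858), against −0.38 ± 0.19 for the brighter one, 1417409_at (adjusted p = 0.229). Fosl2 gave −0.53 ± 0.22 (adjusted p = 0.162), Fosl1 −0.35 ± 0.19, Jund −0.15 ± 0.10 and Fosb −0.03 ± 0.18. At single times the share of all probe sets called was 5.29% with no labelled time, 3.96% at 4 h and 26.9% at 12 h. Of the 13 member probe sets 3 were called with no labelled time, 1 at 4 h and 7 at 12 h. The 12 h calls that the pairs did not give were Junb (2.75 ± 0.17, adjusted p = 1.74e-06) and Fosl1 on 1417488_at (1.56 ± 0.35, adjusted p = 0.00703), both higher in Th1 cells. Fosl2 on 1437247_at (−1.22 ± 0.33, adjusted p = 0.0181) and Jun on 1448694_at (−1.90 ± 0.47, adjusted p = 0.0124) were lower. The other probe set of each of Fosl1, Fosl2 and Jun did not pass at 12 h. These gave 0.18 ± 0.53 for Fosl1 on 1417487_at (adjusted p = 0.864) and 0.17 ± 0.26 for Fosl2 on 1422931_at (adjusted p = 0.703). Jun on 1417409_at gave −0.25 ± 0.40 (adjusted p = 0.718). The calls of Fosl2 and Jun were lost without any 1 of the 4 arrays of that time (−1.35 to −1.08 and −1.93 to −1.88). That of Fosl1 was lost without the Th1 DN Trpm4 array at 12 h (1.49). Array kind differed between the cell types at 12 h alone, and its part in these calls was not tested.

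**Figure D2:**
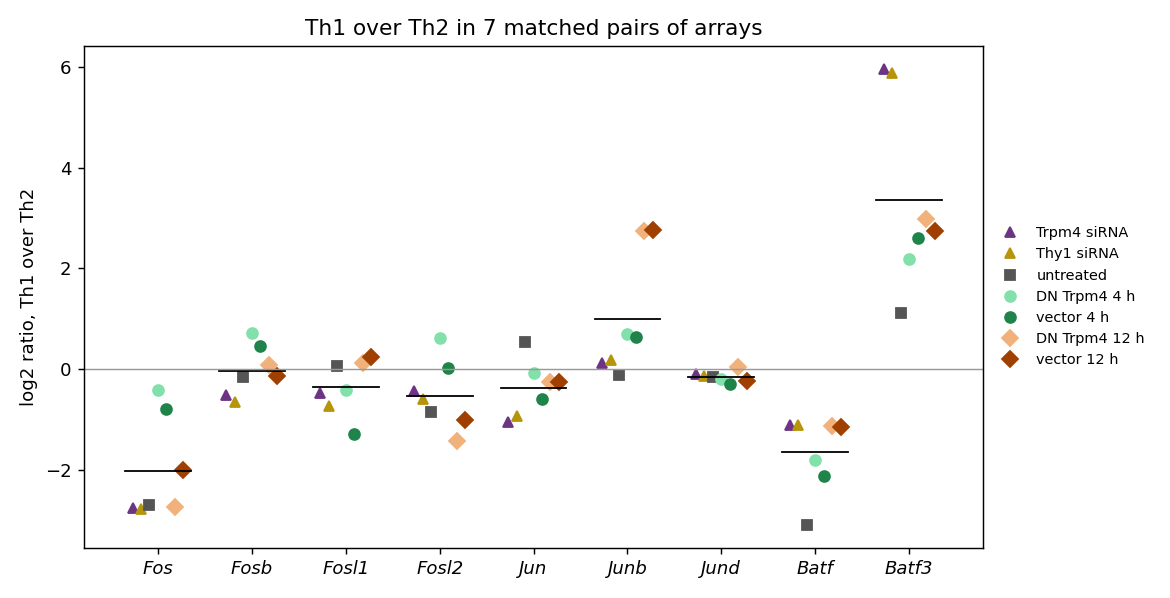
Log2 ratio of Th1 over Th2 for the brightest probe set of each gene in the 7 matched pairs of arrays, with a bar at the mean. All 7 points lie below 0 for Fos and Batf and above 0 for Batf3, from 1.11 to 5.96, while the Junb points of the 12 h pairs lie near 2.76 and those of the other pairs between −0.12 and 0.69.

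Fos, Fosb and Fosl2 had their highest signals at 4 h. On the 4 h arrays, set against those of no labelled time, Fos, Fosb and Fosl2 were higher in both cell types, and Junb and Batf were lower in both. In Th1 cells 6 of the 13 member probe sets passed, 3 in each direction, beside 44.7% of all probe sets, 24.1% higher and 20.5% lower. In Th2 cells it was also 6, 3 in each direction, beside 35.8% of all, 19.4% higher and 16.5% lower. In Th1 cells that count is near the background, so the number of calls is no result about these genes, and sizes and directions are given here. All 4 h arrays were 3′-biased and none of the arrays with no labelled time was. The part of this bias in the differences was not tested. The summed signal of the CD8 T cell markers Cd8a and Cd8b1 was 15.3 to 41.6 on the retrovirus arrays, against 115 to 301 on the arrays with no labelled time, so that it too moved with labelled time.

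For Fos the values above gave 3.37 ± 0.24 in Th1 cells (adjusted p = 1.94e-06) and 1.23 ± 0.24 in Th2 cells (adjusted p = 0.00217). The difference between these effects was 2.14 ± 0.34 (adjusted p = 0.0152), in a comparison that was added after the data had been seen. It was the only one of 13 member probe sets to pass there, beside 1.4% of all probe sets. The call was lost without the Th1 DN Trpm4 array at 4 h (2.16), the Th1 vector array at 4 h (2.11) or the Th2 DN Trpm4 array at 4 h (1.92). Over the 6 groups the mean log2 level of Fos ran 10.27 ± 0.31 (SD) in Th2 cells at 4 h, 9.66 ± 0.04 in Th1 cells at 4 h, 9.04 ± 0.24 in Th2 cells of no labelled time, 8.30 ± 0.14 in Th2 cells at 12 h, 6.29 ± 0.28 in Th1 cells of no labelled time and 5.94 ± 0.38 in Th1 cells at 12 h. The last 2 of these overlapped, and no other neighbours did.

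Fosb encodes a FOS protein that is induced together with Fos and shares its JUN partners. In Th1 cells its signal was 16.7 with Trpm4 siRNA, 14.7 with Thy1 siRNA and 12.6 without treatment, then 85.8 with DN Trpm4 and 104 with vector at 4 h, and 20.8 with DN Trpm4 and 16.7 with vector at 12 h. In Th2 cells the signal was 32.7 with Trpm4 siRNA, 33.4 with Thy1 siRNA and 18.2 without treatment, then 45.9 with DN Trpm4 and 74.2 with vector at 4 h, and 19.4 with DN Trpm4 and 22.1 with vector at 12 h. All 4 arrays of 4 h lay above all 10 others, and Fosb exceeded the median probe set on 6 of the 14 arrays. The 4 h difference was 1.69 ± 0.19 in Th1 cells (adjusted p = 4.05e-05) and 0.65 ± 0.19 in Th2 cells (adjusted p = 0.02), and the difference between cell types did not pass (1.03 ± 0.27, adjusted p = 0.0949). Without the Th2 vector array at 4 h the Th2 call was lost (0.40). In Th1 cells at 4 h the level was 6.68 ± 0.17, against 6.09 ± 0.36 in Th2 cells (n = 2 each).

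Fosl2 encodes FRA-2, a FOS relative that is induced later and stays longer than Fos. In Th1 cells its signal was 457 with Trpm4 siRNA, 381 with Thy1 siRNA and 155 without treatment, then 1527 with DN Trpm4 and 1535 with vector at 4 h, and 217 with DN Trpm4 and 268 with vector at 12 h. Th2 cells gave 679 with Trpm4 siRNA, 679.5 with Thy1 siRNA and 338 without treatment, then 883 with DN Trpm4 and 1552 with vector at 4 h, and 647 with DN Trpm4 and 552 with vector at 12 h. Each 4 h array lay above every array of the other times. The 4 h difference was 2.33 ± 0.30 in Th1 cells (adjusted p = 0.000104) and 1.40 ± 0.30 in Th2 cells (adjusted p = 0.00409), and that between cell types did not pass (0.94 ± 0.42, adjusted p = 0.359). Here too the Th2 call was lost without the Th2 vector array at 4 h (1.09), and likewise on the deposited scale (1.10) and with median-centred arrays (1.04). The second Fosl2 probe set, 1422931_at, spanned 0.83 log2 units over the 14 arrays and passed in no comparison. The gap between both Fosl2 probe sets was 3.05 to 4.13 log2 units on the 3′-biased arrays, against 1.73 to 2.58 on the others, so that it moved with array kind.

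Fosl1 encodes FRA-1, whose gene is itself a known AP-1 target. On probe set 1417487_at its signal in Th1 cells was 71.0 with Trpm4 siRNA, 50.2 with Thy1 siRNA and 17.2 without treatment, then 82.1 with DN Trpm4 and 65.9 with vector at 4 h, and 141 with DN Trpm4 and 153 with vector at 12 h. The Th2 signals were 109 with Trpm4 siRNA, 98.8 with Thy1 siRNA and 18.2 without treatment, then 120.3 with DN Trpm4 and 194 with vector at 4 h, and 162 with DN Trpm4 and 142 with vector at 12 h. It was lowest in the untreated cells of both types. The 12 h arrays of Th1 cells exceeded those of no labelled time by 1.58 ± 0.49 (adjusted p = 0.0439) on this probe set and by 1.30 ± 0.32 on 1417488_at (adjusted p = 0.0152). Both sides of that comparison were on arrays without 3′ bias. The call of 1417487_at was lost in 14 of 23 alternatives, among them those without the untreated Th1 array (1.23), the Th1 DN Trpm4 array at 12 h (1.62) or the Th1 vector array at 12 h (1.53). That of 1417488_at was lost without either 12 h array of Th1 cells (1.23 without DN Trpm4 and 1.36 without vector).

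At 12 h Fos was lower than at 4 h in both cell types, and Fosb and Fosl2 were lower in Th1 cells. In Th1 cells the 12 h arrays differed from the 4 h arrays by −3.72 ± 0.26 for Fos (adjusted p = 5.09e-06), by −2.50 ± 0.33 for Fosl2 (adjusted p = 0.000269) and by −1.54 ± 0.21 for Fosb (adjusted p = 0.000317). There 6 of 13 member probe sets passed, beside 28.9% of all probe sets. Besides Junb, given below, the others were Jun on 1448694_at (−1.96 ± 0.47, adjusted p = 0.00978) and Fosl1 on 1417488_at (1.71 ± 0.35, adjusted p = 0.00369). Jun on 1417409_at (−0.56 ± 0.40, adjusted p = 0.354) and Fosl1 on 1417487_at (1.13 ± 0.53, adjusted p = 0.143) did not pass. The Th1 arrays were 3′-biased at 4 h and not at 12 h. In Th2 cells, where both times were on 3′-biased arrays, only Fos passed among the 13 member probe sets (−1.97 ± 0.26, adjusted p = 0.0342), beside 0.0645% of all probe sets. Fosb (−0.93 ± 0.21, adjusted p = 0.211) and Fosl2 (−0.97 ± 0.33, adjusted p = 0.46) had the same sign there and did not pass. With the pairs of times as a block 7 of 13 passed in Th2 cells, all lower at 12 h, beside 10.1% of all probe sets. They were Fos (−1.97 ± 0.19, adjusted p = 0.00157), Batf3 (−0.91 ± 0.15, adjusted p = 0.01), Fosb (adjusted p = 0.0125), Fosl2 (adjusted p = 0.0164), Batf, Jun on 1417409_at and Jund on 1449117_at. The Fos call in Th2 cells was lost when the arrays were centred on their medians (adjusted p = 0.0503) and in 14 of 22 alternatives in all, 12 of them without a single array (−2.19 to −1.75). The 12 h over 4 h effect was larger in Th1 than in Th2 cells for Fos (difference −1.75 ± 0.37, adjusted p = 0.0126). It differed for Junb too (2.09 ± 0.23, adjusted p = 0.000399), and these were 2 of 13 member probe sets beside 11.2% of all. The Fos difference lost its call without the Th1 DN Trpm4 array at 12 h (−1.48), either Th1 array at 4 h (−1.78 and −1.72 without DN Trpm4 and vector), or the Th2 DN Trpm4 array at 4 h (−1.53) or 12 h (−1.65). The Th1 side of both differences compares arrays of different kind.

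Junb had the lowest log2 difference of the 9 genes against no labelled time, in both cell types at 4 h and at 12 h. JUNB is the JUN protein that pairs with BATF on composite sites. In Th1 cells its signal was 2808 with Trpm4 siRNA, 2659 with Thy1 siRNA and 1878 without treatment, then 217 with DN Trpm4 and 200.3 with vector at 4 h, and 603 with DN Trpm4 and 535 with vector at 12 h. In Th2 cells the signal was 2679 with Trpm4 siRNA, 2442 with Thy1 siRNA and 2136 without treatment, then 135 with DN Trpm4 and 129 with vector at 4 h, and 95.4 with DN Trpm4 and 74.4 with vector at 12 h. All 8 retrovirus arrays lay below all 6 others. The 4 h difference was −3.40 ± 0.15 in Th1 cells (adjusted p = 1.16e-07) and −4.00 ± 0.15 in Th2 cells (adjusted p = 8.49e-08). At 12 h it was −1.77 ± 0.15 in Th1 cells (adjusted p = 3e-05) and −4.45 ± 0.15 in Th2 cells (adjusted p = 3.14e-08). From 4 h to 12 h Junb was higher in Th1 cells (1.63 ± 0.17, adjusted p = 5.42e-05), across arrays of different kind. In Th2 cells that difference was −0.46 ± 0.17 and did not pass (adjusted p = 0.508). Junb also moved with array kind, with log2 levels of 6.50 to 7.76 on the 3′-biased arrays. On the 8 others it was 9.25 and 9.42 in Th1 cells at 12 h and 10.89 to 11.23 with no labelled time. The Th1 difference of 12 h from no labelled time lies within arrays of 1 kind. The part of the bias in the other Junb differences was not tested.

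Jun, the AP-1 subunit whose promoter sites are printed above, was read by a pair of probe sets that disagreed. On 1417409_at its signal in Th1 cells was 562 with Trpm4 siRNA, 501 with Thy1 siRNA and 405 without treatment, then 288 with DN Trpm4 and 239 with vector at 4 h, and 154 with DN Trpm4 and 132 with vector at 12 h. In Th2 cells it was 1339 with Trpm4 siRNA, 1146 with Thy1 siRNA and 314 without treatment, then 299 with DN Trpm4 and 369 with vector at 4 h, and 229 with DN Trpm4 and 178 with vector at 12 h. This probe set was lower at 12 h than with no labelled time in Th1 cells (−1.51 ± 0.37, adjusted p = 0.0145) and in Th2 cells (−1.74 ± 0.37, adjusted p = 0.00385). The Th1 call was lost without the DN Trpm4 (−1.62) or the vector (−1.40) array at 12 h. At 4 h it was lower in Th2 cells (−1.11 ± 0.37, adjusted p = 0.0358), a call lost in 12 of 23 alternatives, and did not pass in Th1 cells (−0.95 ± 0.37, adjusted p = 0.0541). Against the untreated Th2 array alone, whose signal of 314 lay far below those of the siRNA arrays, the Th2 values were −0.14 at 4 h and −0.77 at 12 h. They are given without a p-value because the reference is a single array. Against the Th2 siRNA arrays alone they were −1.59 and −2.23. On 1448694_at the 4 h difference was 0.77 ± 0.43 in Th1 cells and 0.21 ± 0.43 in Th2 cells, which did not pass (adjusted p = 0.174 and 0.739). Its 12 h difference from no labelled time did not pass either. It was −1.19 ± 0.43 in Th1 cells (adjusted p = 0.0813) and −0.09 ± 0.43 in Th2 cells (adjusted p = 0.893). The gap of 1417409_at over 1448694_at was −0.97 to −0.46 log2 units on the 3′-biased arrays, against 0.62 to 1.31 on the others. The sign of Jun at 4 h differed between its probe sets.

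**Figure D3:**
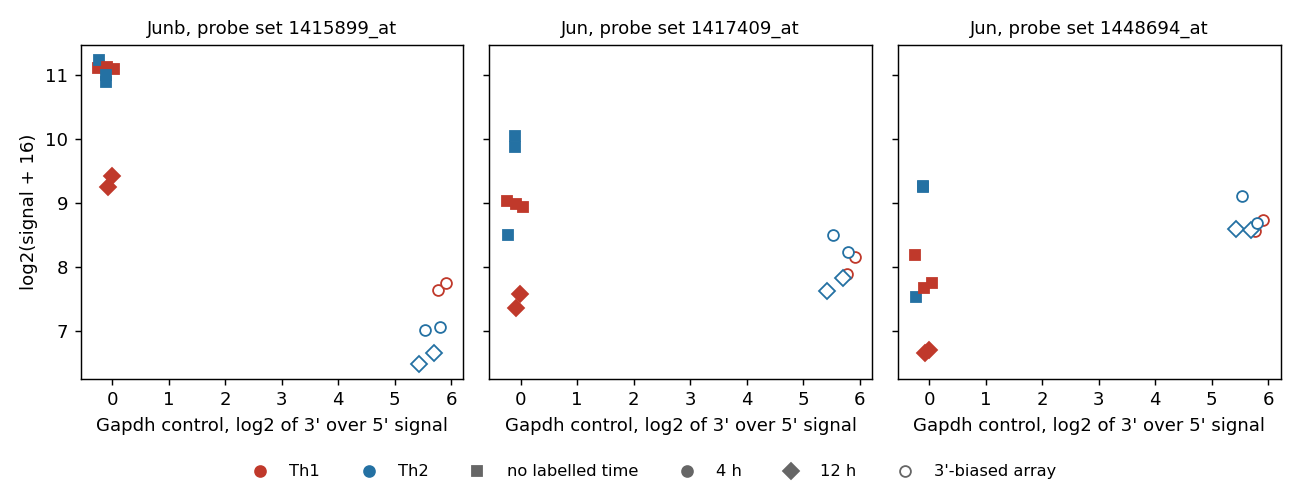
Log2 signal of Junb and of both Jun probe sets on the 14 arrays against the log2 ratio of 3′ over 5′ signal of the Gapdh control, with Th1 in red, Th2 in blue and open symbols for 3′-biased arrays. Junb lies between 6.50 and 7.76 on the 6 biased arrays and between 9.25 and 11.23 on the 8 others, and the Jun probe set 1417409_at lies below 1448694_at on the biased arrays (−0.97 to −0.46) and above it on the others (0.62 to 1.31).

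Jund, the JUN protein that resting cells express most steadily, had the narrowest range of the 9 genes, 0.73 log2 units on 1449117_at. Its signal was 2231 to 4321 on the 7 Th1 arrays with a median of 3068, against 2288 to 4805 with a median of 3314 on the 7 Th2 arrays. Its 12 h arrays differed from those of no labelled time by −0.37 ± 0.13 in Th2 cells (adjusted p = 0.0469), a call lost in 14 of 23 alternatives, and −0.33 ± 0.13 in Th1 cells did not pass (adjusted p = 0.102). The dimmer Jund probe set, 1440265_at, was lower at 4 h in Th1 cells (−1.10 ± 0.31, adjusted p = 0.013), a call lost without the DN Trpm4 (−1.17) or the vector (−1.03) array of that group.

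Batf was lower on the retrovirus arrays of both cell types. At 4 h it was −1.59 ± 0.35 in Th1 cells (adjusted p = 0.00344) and −1.39 ± 0.35 in Th2 cells (adjusted p = 0.00964). At 12 h it was −1.38 ± 0.35 in Th1 cells (adjusted p = 0.0176), within arrays of 1 kind, and −2.01 ± 0.35 in Th2 cells (adjusted p = 0.00118). The Th2 call at 4 h was lost without the DN Trpm4 (−1.35) or the vector (−1.42) array of that group. The Th1 call at 12 h was lost without either siRNA array or either 12 h array of Th1 cells (−1.42 to −1.18). Against the untreated Th1 array alone the Th1 values were −0.85 at 4 h and −0.64 at 12 h, given without a p-value because the reference is a single array. Against the Th1 siRNA arrays alone they were −1.96 and −1.75, so that the size of the Batf difference depended on which arrays it was taken from. Batf3 passed in no comparison of times without the block of times, with an SE of 0.78 against no labelled time. Its untreated and siRNA arrays lay far apart, at log2 levels of 10.86, 10.74 and 8.45 in Th1 cells with Trpm4 siRNA, Thy1 siRNA and no treatment. At 12 h against no labelled time 5 of the 13 member probe sets passed in each cell type, 2 higher and 3 lower in Th1 cells beside 19.5% of all probe sets (11.4% higher and 8.14% lower). In Th2 cells all 5 were lower, beside 34.4% (18.7% higher and 15.7% lower).

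The siRNA arrays were also set against the untreated array of the same cell type. There was 1 untreated array per cell type, so these are log2 values with no test, taken from the mean of both siRNA arrays minus the untreated array. For Fosl1 the difference was 1.02 in Th1 cells and 1.70 in Th2 cells. For Fosl2 it was 0.89 in Th1 cells and 0.55 in Th2 cells. Over all probe sets the middle 90% lay between −1.71 and 1.66 in Th1 cells and between −1.33 and 1.36 in Th2 cells. Outside that range were Batf3 in Th1 cells (2.35) and, in Th2 cells, Batf3 (−2.46), Fosl1, and Jun on 1417409_at (1.46) and on 1448694_at (1.73). Batf had 1.11 in Th1 cells and −0.87 in Th2 cells. In 5 member probe sets, those of Fosb, Jun, Batf and Batf3, both siRNA arrays lay on opposite sides of the untreated array in the 2 cell types, beside 20.7% of all probe sets. For Fosb and for Jun on 1417409_at the Th1 values were −0.07 and −0.06, and their sign depended on the normalisation. The deposited Th1 signals with siRNA were higher than without treatment, at 14.7 and 16.7 against 12.6 for Fosb. For Jun on 1417409_at they were 501 and 562 against 405. The Batf3 signals of Th2 cells with siRNA, 15.2 on each array, lay below the median probe set, so that −2.46 is understated by the scale.

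**Figure D4:**
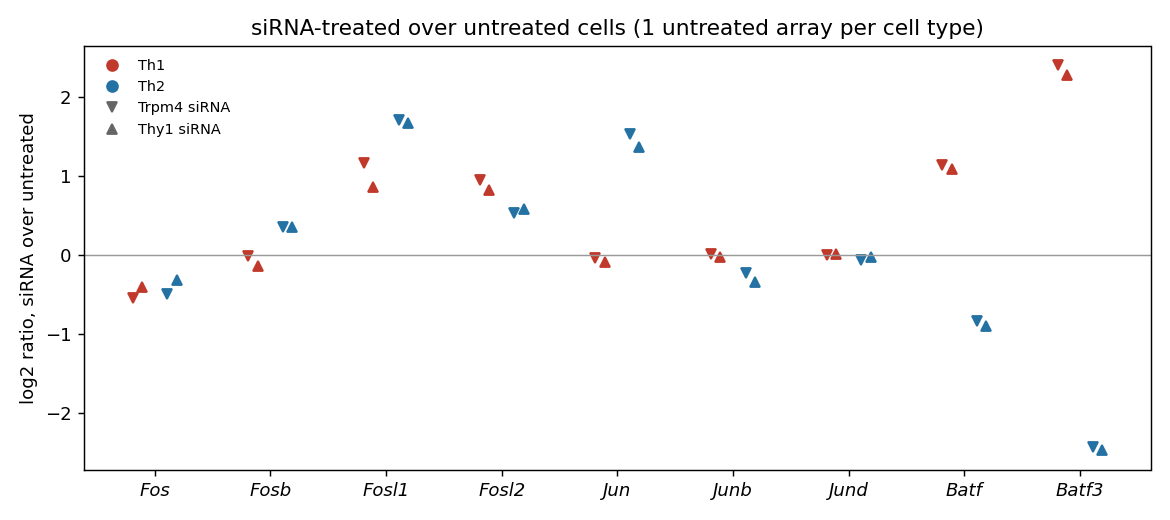
Log2 ratio of each siRNA array over the untreated array of its cell type for the brightest probe set of each gene, with Th1 in red and Th2 in blue. Both Batf3 points lie near 2.35 in Th1 cells and near −2.46 in Th2 cells, both Batf means have opposite signs (1.11 and −0.87), and the means of Jund and Junb lie between −0.29 and 0.00.

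Inhibition of Trpm4 changed none of the 9 genes past the test. Over the 6 pairs of a Trpm4-inhibited and a control array, 0 of 13 member probe sets passed, beside 0% of all 29467, and 0 of 13 had an unadjusted p under 0.05, against 1733 of all probe sets. By limma 0 of 13 passed also for DN Trpm4 over vector, for Trpm4 siRNA over Thy1 siRNA and for the difference of the Trpm4 effect between Th1 and Th2 cells. Each stood beside 0% of all probe sets. In each, 0 of 13 had an unadjusted p under 0.05, against 997, 3318 and 1032 of all 29467 in turn. With so few member probe sets, a count of 0 is no result about these genes. The targets Trpm4 and Thy1 passed in none of these comparisons (0 of 2 in each). Yet Thy1 signals were 2735 with Thy1 siRNA against 7254 with Trpm4 siRNA in Th1 cells, and 937 against 4362 in Th2 cells. In Th2 cells Trpm4 gave 128 with DN Trpm4 against 117 with vector at 4 h, and 129 against 135 at 12 h. Over the 6 pairs the median of the 9 genes, on their brightest probe sets, was 0.00, as over all probe sets. The lowest was Fos at −0.19 ± 0.10 (adjusted p = 0.846), with a 95% interval of −0.40 to 0.02. The highest was Junb at 0.11 ± 0.06 (adjusted p = 0.869), with an interval of −0.03 to 0.25. Over the brightest probe sets of the 9 genes these intervals reached no lower than −0.40 and no higher than 0.28, which bounds the mean change over pairs and not that in a single condition. The dimmer Jund probe set, 1440265_at, gave −0.20 ± 0.13, with an interval of −0.49 to 0.09.

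In single pairs, given with no test, the Junb ratio was above 0 in 6 of 6, from 0.04 to 0.18. The Fos ratio was below 0 in 5 of 6. Fos signals were 50.1 with Trpm4 siRNA against 53.2 with Thy1 siRNA in Th1 cells and 527 against 574 in Th2 cells. The pair of Th2 cells at 12 h, with 329.7 for DN Trpm4 against 265 for vector, was the exception. The lowest Fos ratio was −0.53, in Th1 cells at 12 h with 33.9 for DN Trpm4 against 53.6 for vector, below the −0.36 under which 5% of all probe sets fell in that pair. In the Th2 pair at 4 h Fosl1 was −0.64, Fosl2 −0.61, Fosb −0.50, Fos −0.44 and Jun −0.27, and 7 of the 9 genes were below 0. Of the 9 genes 3 lay below −0.47, the level under which 5% of all probe sets fell in that pair. On these arrays the Actb 3′ over 5′ log2 ratio was 4.85 with DN Trpm4 against 3.96 with vector, and its part in the difference was not tested.

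**Figure D5:**
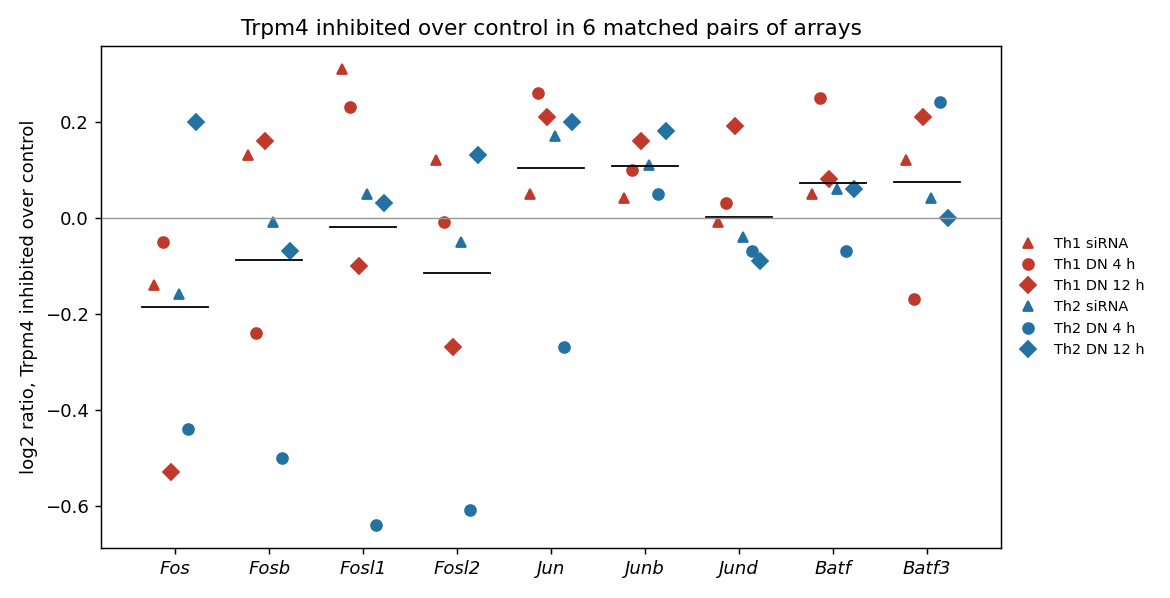
Log2 ratio of the Trpm4-inhibited over the control array for the brightest probe set of each gene in 6 matched pairs, with a bar at the mean. The 6 Junb points lie between 0.04 and 0.18, and the lowest points of Fosl1 (−0.64), Fosl2 (−0.61) and Fosb (−0.50) belong to the DN Trpm4 pair of Th2 cells at 4 h.

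The partners, regulators and targets of AP-1 were read from lists of other genes. For Th1 over Th2, 3.65% of all probe sets were higher and 6.14% lower. Of 15 tested bZIP partners 1 was higher and 4 were lower in Th1 than in Th2 cells, with a median of −0.26 against 0.01 over all probe sets. The lower ones were led by Jdp2, a JUN dimerisation partner that represses AP-1 (−3.72 ± 0.17), Maf, a known activator of Il4 (−3.69 ± 0.30), and Nfil3 (−1.86 ± 0.19), and the higher one was Atf3 (1.59 ± 0.27). Of the IRF partners of BATF, Irf4 was higher in Th1 cells (0.81 ± 0.13) and Irf8 did not pass. Of 6 MAP kinase phosphatases, which switch off the kinases of AP-1, 3 were lower in Th1 cells, Dusp10 (−2.28 ± 0.20), Dusp6 (−1.48 ± 0.32) and Dusp1 (−0.76 ± 0.13). Of 9 kinases tested only Mapk14, which encodes p38α, passed (−0.75 ± 0.17), and of the SRF and ternary complex factors and of the ubiquitin ligases of Jun and Fos 0 of 4 each did.

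Of 15 T cell genes with known AP-1 or BATF sites 6 were higher and 5 lower in Th1 cells, beside the same 3.65% and 6.14%, with a median of 0.20 against 0.01. The 4 with the largest differences were Il4 (−6.59 ± 0.52), Il5 (−5.68 ± 0.56), Il2 (3.84 ± 0.47) and Il13 (−3.59 ± 0.38). Il4, Il5, Il13 and Ifng also served as markers of the cell types, so that their direction is no independent result. At 4 h against no labelled time 4 of the 15 were higher and 0 lower in Th1 cells, beside 24.1% and 20.5% of all probe sets. In Th2 cells 3 were higher and 1 was lower, beside 19.4% and 16.5%. The medians were 0.99 and 1.05, against 0.00 and 0.02 over all. Tnf and Il2 were higher in both cell types, with Tnf at 3.75 ± 0.59 in Th1 cells and 3.14 ± 0.59 in Th2 cells, and Il2 at 2.96 ± 0.48 and 3.10 ± 0.48.

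At 4 h the bZIP partners had 7 higher and 1 lower of 15 in Th1 cells and 5 higher and 2 lower in Th2 cells, with medians of 0.99 and 0.48 against 0.00 and 0.02 over all probe sets. Bach1 (2.62 ± 0.22) and Maff (2.27 ± 0.30) led in Th1 cells, and Crem was lower in Th1 cells (−1.74 ± 0.28) and in Th2 cells (−1.89 ± 0.28). Irf8 was higher in both cell types, by 3.82 ± 0.43 in Th1 cells and 1.51 ± 0.43 in Th2 cells. Among the kinases 4 were higher and 1 was lower of 9 in each cell type, and Map3k8, a kinase upstream of the ERK and JNK pathways, had the largest difference in both (3.52 ± 0.40 in Th1 cells and 1.96 ± 0.40 in Th2 cells). Srf, which with ternary complex factors drives Fos transcription, was higher by 1.63 ± 0.17 in Th1 cells and by 1.65 ± 0.17 in Th2 cells. Of the 6 MAP kinase phosphatases 2 were higher and 1 was lower in Th1 cells, with a median of 0.38. In Th2 cells 0 were higher and 1 was lower, with a median of −0.13. Dusp5 was lower in both (−2.30 ± 0.19 and −1.49 ± 0.19). As for the members, these comparisons set 3′-biased arrays against arrays without the bias, and 44.7% and 35.8% of all probe sets passed. Over the Trpm4 pairs 0 genes of any of these lists passed.

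The order of the 6 groups by mean log2 level, given above for Fos, differed between the members. Batf was highest in Th2 cells of no labelled time (10.75 ± 0.51, SD, n = 3), followed by Th2 cells at 4 h (9.36 ± 0.05, n = 2), Th1 cells of no labelled time (8.98 ± 0.64), Th2 cells at 12 h (8.74 ± 0.04), Th1 cells at 12 h (7.60 ± 0.06) and Th1 cells at 4 h (7.40 ± 0.18), and here Th2 cells at 4 h, Th1 cells of no labelled time and Th2 cells at 12 h overlapped in turn. Batf3 was at 10.02 ± 1.36 in Th1 cells of no labelled time, 9.80 ± 0.12 at 4 h and 9.36 ± 0.15 at 12 h, ahead of Th2 cells at 4 h (7.41 ± 0.17), at 12 h (6.50 ± 0.00) and of no labelled time (5.70 ± 1.42). There the first overlapped with the second and the fifth with the sixth. Junb was at 11.11 ± 0.02 and 11.04 ± 0.17 in Th1 and Th2 cells of no labelled time, which overlapped, then at 9.34 ± 0.12 in Th1 cells at 12 h, 7.70 ± 0.07 in Th1 cells at 4 h, 7.04 ± 0.04 in Th2 cells at 4 h and 6.58 ± 0.13 in Th2 cells at 12 h. Of the 5 neighbouring steps 1 overlapped for Fosb, Jun and Jund and 3 for Fosl1 and Fosl2.

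The members were also alike or unlike in their pattern over the 14 arrays, which share array kind and cell type. Fosl2 correlated with Fosb at 0.89 and with Fos at 0.84, Fos with Fosb at 0.75, Junb with Fosl2 at −0.69, and Batf with Batf3 at −0.57 (Pearson r, n = 14 arrays, given as description). Among all other genes, those most like Fos were Numb (0.97), Foxn3 (0.969) and Ensa (0.958). Those most like Batf were Ppp3cc (0.974), Psen2 (0.958) and Rab4a (0.951), and those most like Batf3 were Coro2a (0.959), Mfhas1 (0.946) and Plod2 (0.94). For Junb they were Dync1li1 (0.988), Vps51 (0.985) and Vti1a (0.984), and for Jun Asap2 (0.959), Marchf7 (0.952) and Ip6k1 (0.951). For Fosb they were Map3k8 (0.94), Cdc42ep3 (0.939) and Isy1 (0.937), for Fosl2 Tmem19 (0.964), Zfp281 (0.955) and Sik1 (0.952), and for Fosl1 Slc30a6 (0.955), Galnt3 (0.95) and Zfand5 (0.945). Jund spanned less than 1 log2 unit and was left out of this search.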

How the data were processed

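Per the labels' protocols, Trizol was used to extract total RNA from the 14 samples, and biotin-labelled material went onto Affymetrix arrays. The authors deposited 1 linear intensity per probe set and array. The method of probe summary and array scaling is not given in the sources at hand. Because array totals differed, quantile normalisation was applied across all arrays before log2(signal + 16). Probe sets above their array's median in at least 2 arrays were kept (29467 probe sets, 13118 genes), and the 64 control probe sets gave the 3′ over 5′ ratios. Depth has no counterpart on arrays, and 1 array per condition limits the precision.

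Linear models were fitted in R 4.3.3 with limma 3.58.1 (lmFit, then eBayes), two-sided, and called at an adjusted p under 0.05. Th1 over Th2 (7 pairs) and the Trpm4 comparisons had the matched pair as a block. Labelled times were compared in 1 fit of 6 groups (8 residual degrees of freedom). The fits were tested on simulated data. Every probe set annotated to exactly 1 member was described, of a list at most 4 called genes were named by the size of the difference, and for each member 3 genes by Pearson r over the arrays. The members and lists were chosen with earlier results of these data known. The difference of the 4 h effect between cell types, and all fits without both untreated arrays, were added after seeing the data. Alternatives tried were the scale as deposited, arrays centred on their medians, all probe sets, a filter at each array's 75th percentile, pseudocounts of 1 and 64, a variance trend, no pair block or another one, and arrays or pairs left out. Probe set genes came from the platform annotation: 34958 of 45101 probe sets had 1 gene, 932 several and 9211 none. Promoter sequences are RefSeq's.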

Additional observations from a re-analysis of the deposited data

Results flagged for a closer look

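The following results stood out because an effect differed between Th1 and Th2 cells. For Fos the 12 h over 4 h effect in Th1 cells minus that in Th2 cells was −1.75 (adjusted p = 0.0126), and the effect of 4 h over no labelled time differed by 2.14 (adjusted p = 0.0152). For Junb the 12 h over 4 h effect differed by 2.09 (adjusted p = 0.000399). The Th1 arrays changed from 3′-biased at 4 h to not biased at 12 h, while the Th2 arrays were biased at both times, and the part of this in the differences was not tested.

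After normalisation, both siRNA arrays moved in opposite directions from the untreated array in the 2 cell types for 5 of the 13 member probe sets. The share over all probe sets was 20.7%. The difference between the cell types was not tested. The log2 values were 2.35 in Th1 cells and −2.46 in Th2 cells for Batf3, and 1.11 in Th1 cells and −0.87 in Th2 cells for Batf. For Jun they were −0.06 in Th1 cells and 1.46 in Th2 cells on probe set 1417409_at, and −0.47 in Th1 cells and 1.73 in Th2 cells on 1448694_at. For Fosb they were −0.07 in Th1 cells and 0.36 in Th2 cells. On the deposited scale the Th1 siRNA signals of Fosb and of Jun on 1417409_at lay above the untreated one. The Th1 sign of these probe sets thus depended on the normalisation.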

How the results depend on the processing

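Of 1005 recalculations of 46 called member results, 877 kept direction and side of the threshold, 128 lost the call and 0 changed direction. Numbers below are calls among the 13 member probe sets, with the share of all probe sets called by the same fit where it follows. Th1 over Th2 had 3, 3 to 4 with a pair left out and 1 without the pair block (2.84% of all), where Fos (adjusted p = 0.133) and Batf (0.0727) were lost. The Trpm4 comparisons had 0 under every alternative run. Against no labelled time, 4 h gave 6 in Th1 cells (5 to 8 with an array left out, 10 with the siRNA arrays alone, 70.2% of all, and 11 with the untreated arrays alone, 72.1%) and 6 in Th2 cells (2 to 8, lowest without the vector array at 4 h). For 12 h they were 5 in Th1 cells (1 to 6, lowest without either Th1 array at 12 h, 9 with either set alone, 47.8% with the siRNA and 65.9% with the untreated arrays) and 5 in Th2 cells (3 to 6, 3 with a pseudocount of 1, 10 with the siRNA arrays alone, 63.7%, and 9 with the untreated arrays alone, 63.4%). For 12 h over 4 h they were 6 in Th1 cells (5 to 8, 10 with the pairs of times as a block, 56.1%) and 1 in Th2 cells (0 to 2, 0 without any one of 12 arrays, 0 with median-centred arrays or a pseudocount of 1, 7 with the block, 10.1%). The differences between cell types gave 2 for 12 h over 4 h (1 to 4, 4 with a pseudocount of 64, 13.7%, and 7 with the block, 38.2%) and 1 for 4 h (0 to 3, 0 without either Th1 array at 4 h or the Th2 DN Trpm4 array at 4 h, 8 with the siRNA arrays alone, 28.8%, and 7 with the untreated arrays alone, 24.4%). Th1 over Th2 within a time gave 3 with no labelled time (3 to 5, most without the Th2 untreated array, 8 without both untreated arrays, 33.4%), 1 at 4 h (0 to 3, 0 without any of the 4 arrays of that time, 0 on the deposited scale, 2 with the filter at the 75th percentile, 8.27%, a pseudocount of 64, 6.05%, or a variance trend, 4.11%) and 7 at 12 h (2 to 7, lowest without the Th1 DN Trpm4 array, 4 on the deposited scale, 23.4%, or the median-centred one, 24.5%). Fits with the untreated arrays alone have a single array as the reference in each cell type, so their counts rest on the spread of the other arrays. The causes were not tested.

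On the deposited scale the median over all probe sets was 0.11 for 4 h over no labelled time in Th1 cells and −0.12 for 12 h over 4 h in Th1 cells, against 0.00 and −0.01 after normalisation. Among all calls of Th1 over Th2 the share higher in Th1 cells was 25.1% on that scale and 37.3% after normalisation. Each condition had 1 array, so replicate numbers pair none of them, and the paired fits took matched conditions as pairs.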
